A study of Mus musculus with 4 samples.

Results

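Prostaglandins are short-lived lipid signals made from arachidonic acid. Cytosolic phospholipase A2 (Pla2g4a) frees the fatty acid from membranes, the cyclooxygenases (Ptgs1 and Ptgs2, also called COX-1 and COX-2) turn it into prostaglandin H2, and terminal synthases such as Ptges and Ptges2 make prostaglandin E2 from that. Prostaglandin E2 acts on the receptors EP1 to EP4, encoded by Ptger1 to Ptger4, and is inactivated by the dehydrogenase Hpgd and by reductases such as Ptgr1. In pancreatic islets, prostaglandin E2 is known as a signal that can lower insulin secretion through EP3. The account here covers 10 genes of this pathway, Ptgs1, Ptgs2, Ptges, Ptges2, Pla2g4a, Hpgd, Ptgr1, Ptger1, Ptger2 and Ptger4, of 23473 gene rows in the count table. They were selected by symbol, by a proposal made with the counts of these same libraries already in view. Their values, fold changes and calls between the groups are therefore descriptions, and no p-value is given for them.

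RNA-seq counts came from 2 libraries of a stable MIN6 line with TLX overexpression and 2 libraries of MIN6 cells labelled as wild type controls. TLX, the product of Nr2e1, is a nuclear receptor that acts mostly as a repressor in neural stem cells. MIN6 is a mouse insulinoma line used as a model of the insulin-secreting beta cell, and all cells were grown with 25 mM glucose and 15% serum. The sources used here give neither the vector nor its promoter, nor whether the line is 1 clone. Nothing says that the 2 libraries of a group came from separate cultures, so errors and p-values measure the spread between these libraries, which may be technical.

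Gene rows held 8136185 to 8490145 counts per library with TLX and 8435976 to 9788646 in control. Levels are CPM, that is, counts scaled to a common library total, with sizes adjusted by TMM, a normalisation that assumes most genes do not change, and means carry the SD over 2 libraries. Nr2e1 had 338 and 281 counts with TLX, against 8 and 10 in control. Beta cell markers were mostly absent in both groups. Of 14 such genes 9 had 0 counts in all 4 libraries, and together they summed to 20.9 and 22.1 CPM with TLX and 20.6 and 18.3 CPM in control. Mesenchymal markers, which include collagen and fibronectin genes, summed to 6860 and 6752 CPM with TLX and 6419 and 6060 CPM in control. Of those 12 genes 7 were tested (2 rose and 2 fell) and 1, Lum, was at 0. Col1a2 and Vim made up most of the sums, and Col3a1, Dcn, Thy1 and Acta2 had at most 6 counts in any library. The prostaglandin genes were thus measured in cells with few transcripts that define beta cells.

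Most steps of prostaglandin E2 synthesis had a transcript in every library, whereas EP2, EP4 and the dehydrogenase had almost none. Ptgs2, the cyclooxygenase that many cells induce on stimulation, was lower with TLX, at 193 ± 16 CPM with TLX and 516 ± 43 CPM in control. Ptges was higher, at 106.6 ± 3.1 CPM with TLX and 84.5 ± 3.6 CPM in control. Ptgs1, Ptges2, Pla2g4a, Ptgr1 and Ptger1 differed by at most 1.17-fold in either direction. Of the 10 genes 7 had enough counts to be tested (edgeR's minimum expression filter), and 1 was called higher and 1 lower at an adjusted p under 0.05, read from a fit over all genes. Over all 11024 genes tested 16.8% were called, 7.79% as higher and 9.04% as lower with TLX. Because the genes were chosen with this contrast known, nothing is read from their share. Without TLX replicate 1, Ptges was not called and 1 of the 7 was.

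**Figure D1:**
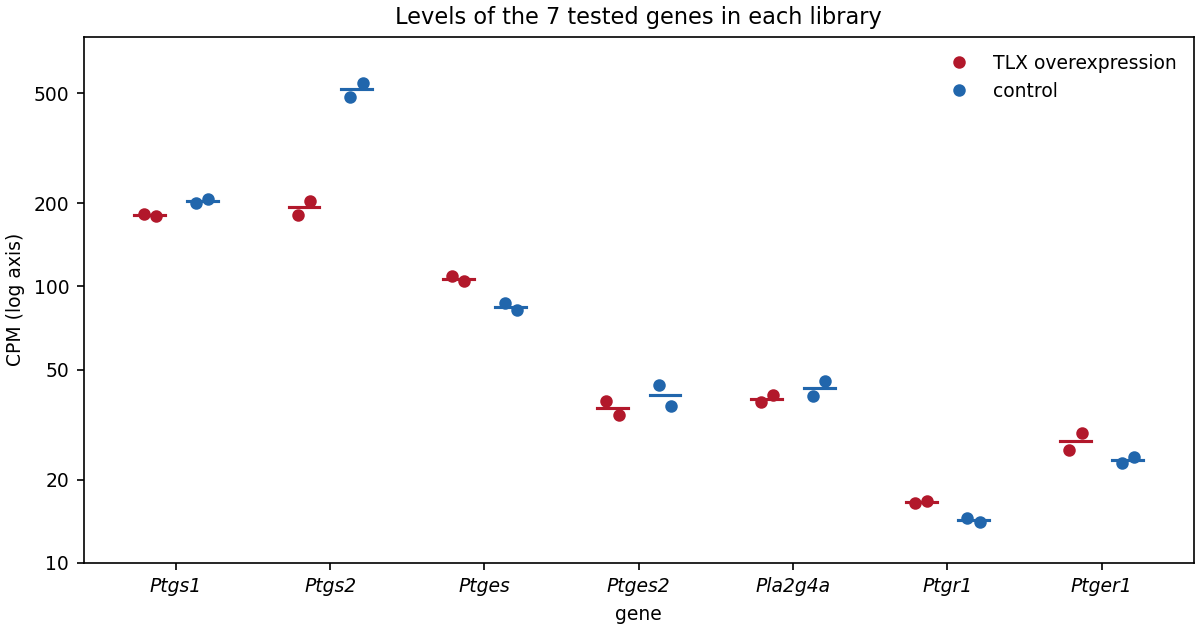
CPM (log axis) of the 7 tested prostaglandin genes; each point is 1 library, bars are group means, and TLX overexpression stands left of control for each gene. The Ptgs2 points lie at 182 and 204 CPM with TLX and at 486 and 546 CPM in control, and the other genes lie close together in both groups.

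Pla2g4a, which releases arachidonic acid for the cyclooxygenases, was at 38.0 and 40.4 CPM with TLX and 40.1 and 45.6 CPM in control. The groups overlapped, and the log2 fold change was -0.13 with an SE of 0.10. In the RefSeq gene order Pla2g4a and Ptgs2 are neighbours on mouse chromosome 1, with no other protein-coding gene between them. Their transcripts did not shift alike. Per kilobase of feature length, Ptgs2 stood at 3.28 and 3.47 times Pla2g4a with TLX and at 8.31 and 8.22 times in control. Pdc, the coding gene on the far side of Ptgs2, had 0 counts in every library.

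The 3 promoters below are shown because Ptgs2, Ptgs1 and Ptges are the enzyme genes on which the comparison turns, and each runs 5′ to 3′ from 250 bases before to 50 bases after a RefSeq start site in build GRCm38.p6. Capitals mark matches to the searched motifs. The Ptgs2 window is chr1:150099781-150100080 on the plus strand, that of Ptgs1 is chr2:36230176-36230475 on the plus strand and that of Ptges is chr2:30903248-30903547 on the minus strand.
Ptgs2: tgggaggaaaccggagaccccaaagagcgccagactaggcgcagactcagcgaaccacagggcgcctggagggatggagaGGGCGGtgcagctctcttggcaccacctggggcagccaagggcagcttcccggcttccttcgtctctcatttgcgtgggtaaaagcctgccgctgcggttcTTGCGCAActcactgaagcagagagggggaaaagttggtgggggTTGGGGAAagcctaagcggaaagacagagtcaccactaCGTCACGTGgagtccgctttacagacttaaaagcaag
Ptgs1: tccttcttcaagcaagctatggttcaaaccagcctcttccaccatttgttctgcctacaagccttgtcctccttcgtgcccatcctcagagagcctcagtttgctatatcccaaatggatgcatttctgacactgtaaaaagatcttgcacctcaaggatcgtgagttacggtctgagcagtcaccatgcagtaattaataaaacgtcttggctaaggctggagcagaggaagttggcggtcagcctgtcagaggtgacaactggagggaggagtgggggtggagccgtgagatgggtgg
Ptges: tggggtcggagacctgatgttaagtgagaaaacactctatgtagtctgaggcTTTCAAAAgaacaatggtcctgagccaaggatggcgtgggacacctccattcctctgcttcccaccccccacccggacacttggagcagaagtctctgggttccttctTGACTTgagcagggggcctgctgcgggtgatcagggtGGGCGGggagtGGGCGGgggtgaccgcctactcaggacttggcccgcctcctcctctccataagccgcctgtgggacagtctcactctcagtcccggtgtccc

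Both strands were searched for 8 motifs: a TATA box (TATAAA), the TLX core site (AAGTCA), an E-box (CACGTG), a cAMP response element core (CRE core, TGACG), a C/EBP site (TTNNGNAA), a GC box (GGGCGG), an AP-1 site (TGANTCA) and the NF-kB site, by its usual consensus. In the Ptgs2 window a CRE core on the minus strand and an E-box overlapped by 2 bases, beginning at bases 14 and 17 from the RefSeq start. All positions are relative to that annotated start, and where transcription of Ptgs2 begins in these cells was not tested. C/EBP matches began 69 and 25 bases before the start, and a GC box 170 bases before it. Among the 32851 RefSeq windows of this length, 20.8% held the CRE core, 7.15% the E-box, 40.7% the C/EBP site and 35.7% the GC box. The Ptgs1 window held 0 matches to any of the 8 motifs. The Ptges window held 2 GC boxes, a C/EBP match and a TLX core site on the minus strand that began 90 bases before the start. A TLX core site was also in the windows of Ptges2 and Ptgr1, so 3 of the 10 windows of these genes held one, against 15.1% of all windows. These 10 windows come from 9 of the genes. A match describes letters in the window and shows no binding.

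**Figure D2:**
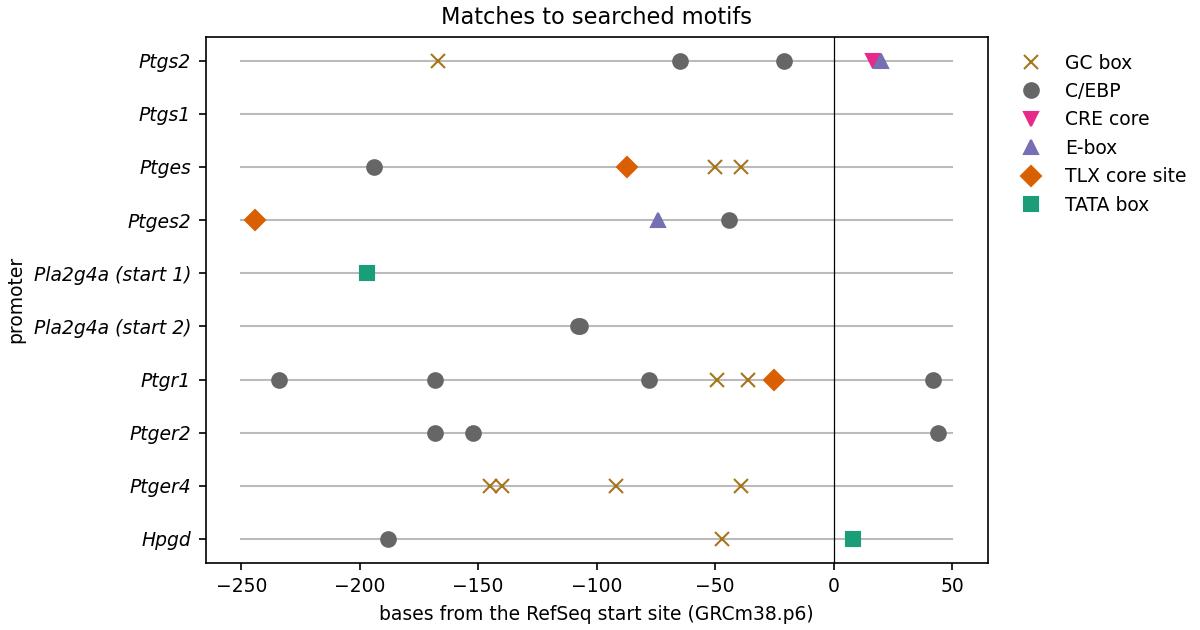
Positions of motif matches in the promoter windows of 9 prostaglandin genes, in bases from the RefSeq start site (vertical line); Pla2g4a has 2 annotated starts, and AP-1 and NF-kB, searched too, had 0 matches. Ptgs2 carries the CRE core and E-box just after the annotated RefSeq start, and Ptgs1 has no match.

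Ptgs2, the inducible cyclooxygenase, was at 182 and 204 CPM with TLX and at 486 and 546 CPM in control. Both TLX libraries lay far below both control libraries. The log2 fold change was -1.42 with an SE of 0.08, which is 2.67-fold lower with TLX. Of the 4 ratios of a TLX to a control library, the log2 values ran from -1.59 to -1.25. Of all genes tested, 99.4% had a smaller absolute log2 fold change. Over the 13 alternative settings, which reuse these same libraries, the log2 fold change of Ptgs2 ran from -1.50 to -1.33. In bulk RNA, fewer cells that carry a transcript and less of it per cell cannot be told apart.

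Ptgs1, the cyclooxygenase that most tissues express steadily, was at 182.8 and 179.9 CPM with TLX and at 200.6 and 207.3 CPM in control. Its groups did not overlap either, but the gap was small, with a log2 fold change of -0.17 (SE 0.07), and it was not called. Across the 7 tested genes 5 had groups that did not overlap, beside 57.1% of all genes tested.

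The balance of the 2 cyclooxygenase transcripts therefore differed between the groups. Of the counts of both genes, Ptgs2 took 49.9% (95% exact binomial interval 48.1 to 51.6) and 53.2% (51.4 to 55.0) in TLX replicates 1 and 2. It took 70.8% (69.6 to 71.9) and 72.5% (71.5 to 73.5) in control replicates 1 and 2. These intervals cover counting error only and use no normalisation between libraries. Per kilobase, Ptgs1 was the more abundant transcript with TLX, at 63.3 ± 0.7 CPM per kilobase beside 46.6 ± 3.8 for Ptgs2. In control the order was the opposite, with Ptgs2 at 124 ± 10 and Ptgs1 at 71.2 ± 1.7 CPM per kilobase. The summed cyclooxygenase level was 107.7 and 112.1 CPM per kilobase with TLX and 187 and 204 in control.

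**Figure D3:**
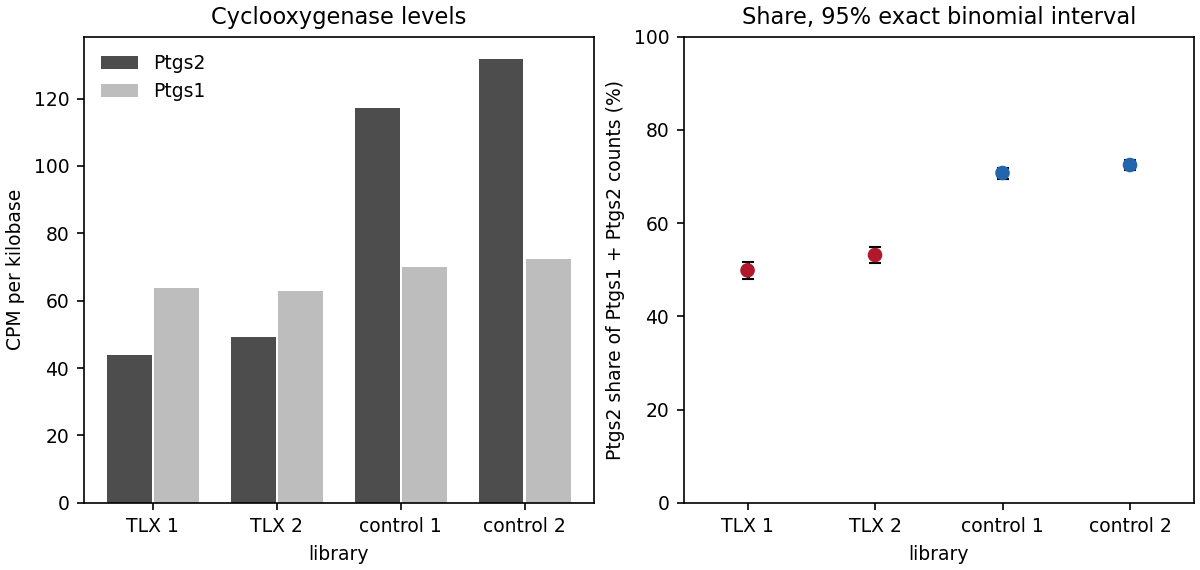
Left, CPM per kilobase of Ptgs2 and Ptgs1 in each library; right, the share of Ptgs2 in the counts of both genes, with 95% exact binomial intervals. Ptgs2 bars are shorter than Ptgs1 bars in both TLX libraries and taller in both control libraries, and the share is near 50% with TLX (49.9% and 53.2%) and above 70% in control (70.8% and 72.5%).

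Markers of other cell types moved in both directions. The 8 macrophage and leukocyte markers with a row summed to 103.0 and 104.6 CPM with TLX and 120.1 and 121.8 CPM in control. Cd68, a lysosomal protein of macrophages, was the 1 of 3 tested that was called (lower), at 44.3 ± 1.5 CPM with TLX and 63.7 ± 6.4 CPM in control. Cd14 was at 42.5 ± 0.9 CPM with TLX and 39.6 ± 4.9 CPM in control. Lyz2 was at 16.7 CPM with TLX and 17.3 CPM in control, and neither was called. Defining leukocyte genes were near 0 in both groups: Ptprc had 0 and 1 counts with TLX and 1 and 1 in control, and the macrophage receptor gene Emr1 had 0 throughout. The 6 duct markers summed to 724 and 740 CPM with TLX and 895 and 977 CPM in control, of which Spp1 made up most, and Krt19, a defining keratin gene, had 0 counts throughout. Among the 4 duct markers tested 1, Krt7, was called higher (27 and 26 counts with TLX, 10 and 7 in control). The 2 called lower were Sox9 and Spp1, and Muc1 was not called (log2 fold change 0.72, SE 0.42). Of the 6 endothelial markers 1 was tested and 0 were called (edgeR; adjusted p = 0.574 for Vwf), and they summed to 4.05 and 2.65 CPM with TLX and 2.52 and 2.92 CPM in control. The part of these markers in the Ptgs2 values was not tested.

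The prostaglandin E synthases showed no common direction. Ptges, the membrane-bound synthase that is often induced together with COX-2, was at 108.8 and 104.5 CPM with TLX and at 87.1 and 82.0 CPM in control. Both TLX libraries were above both control libraries, and the log2 fold change was 0.34 with an SE of 0.08 (1.26-fold). Without TLX replicate 1 the value was 0.31 with an SE of 0.13, and the gene was not called. Ptges2, a second membrane-associated synthase, was at 38.6 and 34.2 CPM with TLX and 43.8 and 37.0 CPM in control. Its groups overlapped, and the log2 fold change was -0.14 with an SE of 0.11. Relative to Ptgs2, Ptges was thus more abundant with TLX: per kilobase it reached 0.680 and 0.581 of the Ptgs2 level with TLX, against 0.204 and 0.171 in control.

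Among the receptor members, Ptger1 alone had more than 2 counts in any library. Ptger1, which encodes EP1, a receptor that raises intracellular calcium, was at 25.7 and 29.4 CPM with TLX and at 22.9 and 24.2 CPM in control. Its groups did not overlap, but the log2 fold change of 0.22 had an SE of 0.12 and was not called. This count is uncertain, since the sources used here do not say whether reads were counted by strand. In GENCODE vM21 (GRCm38), single genes on the opposite strand overlapped 3.81% of the exonic bases of Ptgs1 and 1.23% to 15.3% of those of Ptger2 and Ptger4, and none overlapped exons of Ptgs2 or Ptges.

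Ptger2 and Ptger4 encode EP2 and EP4, which raise cyclic AMP. Ptger2 had 0 and 0 counts with TLX and 0 and 1 in control, and Ptger4 had 0 and 0 with TLX and 0 and 2 in control. No difference was detectable at this depth, where a count of 0 allows a level of up to 0.347 and 0.379 CPM in the TLX libraries and 0.359 and 0.302 CPM in control (3 counts, counting error only). Ptger3, whose EP3 product lowers cyclic AMP, had 0 counts in all 4 libraries.

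The 2 inactivating enzymes differed in level. Hpgd, the dehydrogenase that begins prostaglandin breakdown, had 0 counts in every library, within the same limits. Ptgr1, a reductase that acts on the oxidised products and on leukotriene B4, was at 16.4 and 16.8 CPM with TLX and 14.5 and 14.0 CPM in control. Its groups did not overlap, but the log2 fold change of 0.22 had an SE of 0.13 and was not called.

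Ordered by level per kilobase, the transcripts with TLX ran from Ptgs1 (63.3) through Ptgs2 (46.6), Ptges (29.2), Ptges2 (18.7), Pla2g4a (13.8) and Ptger1 (13.2) to Ptgr1 (7.89 CPM per kilobase). In control the order was Ptgs2 (124), Ptgs1 (71.2), Ptges (23.2), Ptges2 (20.7), Pla2g4a (15.1), Ptger1 (11.3) and Ptgr1 (6.77). Pla2g4a and Ptger1 overlapped between libraries with TLX, and Ptges and Ptges2 nearly met in control, at 22.5 CPM per kilobase in 1 library each. Apart from the exchange of the cyclooxygenases the order was the same in both groups.

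**Figure D4:**
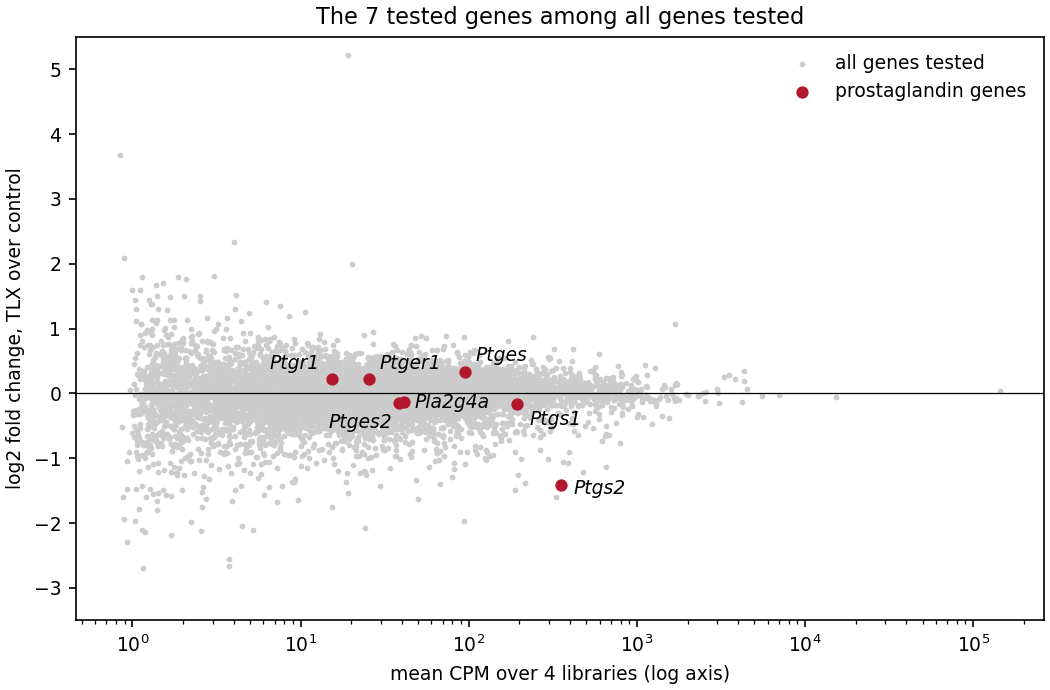
Log2 fold change of TLX over control against mean CPM over the 4 libraries (log axis) for the 11024 genes tested (grey) and the 7 tested prostaglandin genes (red). Ptgs2 lies at -1.42, below most genes of its abundance, and the other 6 lie between -0.17 and 0.34, within the grey cloud.

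The other eicosanoid genes were a list of 63 symbols for further phospholipases, synthases, transporters, receptors and the lipoxygenase branch. Of the 62 with a row 21 were tested, of which 1 rose, 3 fell and 17 did not pass. The share called, 4 of 21, was close to the 16.8% of all genes tested. This list and those below were chosen with earlier results of these data known, so nothing is read from their shares called. The adjusted p-values of their genes carry the same limit. The median log2 fold change was -0.05, beside 0.00057 over all genes tested. Pla2g2e, a secreted phospholipase A2, fell to 13.1 ± 0.5 CPM with TLX, against 28.1 ± 0.2 CPM in control (log2 fold change -1.10, SE 0.12, edgeR adjusted p = 1.2e-06). Pla2g12a, another secreted phospholipase, fell to 92.2 ± 7.0 CPM with TLX, against 127.0 ± 0.1 CPM in control (log2 fold change -0.46, SE 0.08, adjusted p = 0.00035). Ptgfrn, which encodes a membrane protein that binds the prostaglandin F2α receptor, had a log2 fold change of -0.24 (adjusted p = 0.0413). It did not pass without either TLX library (0.327 and 0.254; 0.00333 to 0.327 over all alternatives). The gene that rose was Ptgds, the lipocalin-type prostaglandin D synthase, with 50 and 30 counts with TLX and 8 and 17 in control (log2 fold change 1.81, SE 0.33, adjusted p = 0.000411). Ptges3, a cytosolic prostaglandin E synthase also known as the Hsp90 co-chaperone p23, was the most abundant gene of the list, at 207.2 ± 3.2 CPM with TLX and 189 ± 20 CPM in control. It did not pass (log2 fold change 0.13, adjusted p = 0.297, and 0.0197 to 0.871 over the alternatives, the lowest without control replicate 2).

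Transcripts of the wider list ranged widely in level. Lta4h, the leukotriene A4 hydrolase, averaged 83.6 CPM with TLX and 75.9 CPM in control, and Gpr44, a receptor for prostaglandin D2, averaged 3.02 CPM with TLX and 2.90 CPM in control; both were tested and not called. The thromboxane synthase gene Tbxas1, the lipoxygenase gene Alox15 and the receptor genes Ptgdr and Ptgfr had 0 counts in all libraries. The 5-lipoxygenase gene Alox5 had 0 and 1 counts with TLX and 0 and 0 in control. Ptgir, the prostacyclin receptor gene, had 9 and 10 counts with TLX and 8 and 10 in control, and was not tested. Of the 62 rows 16 had 0 counts throughout and 41 in all were too low to be tested. The genes of this paragraph, and Ptger3 and Pdc above, were chosen after their values were seen.

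**Figure D5:**
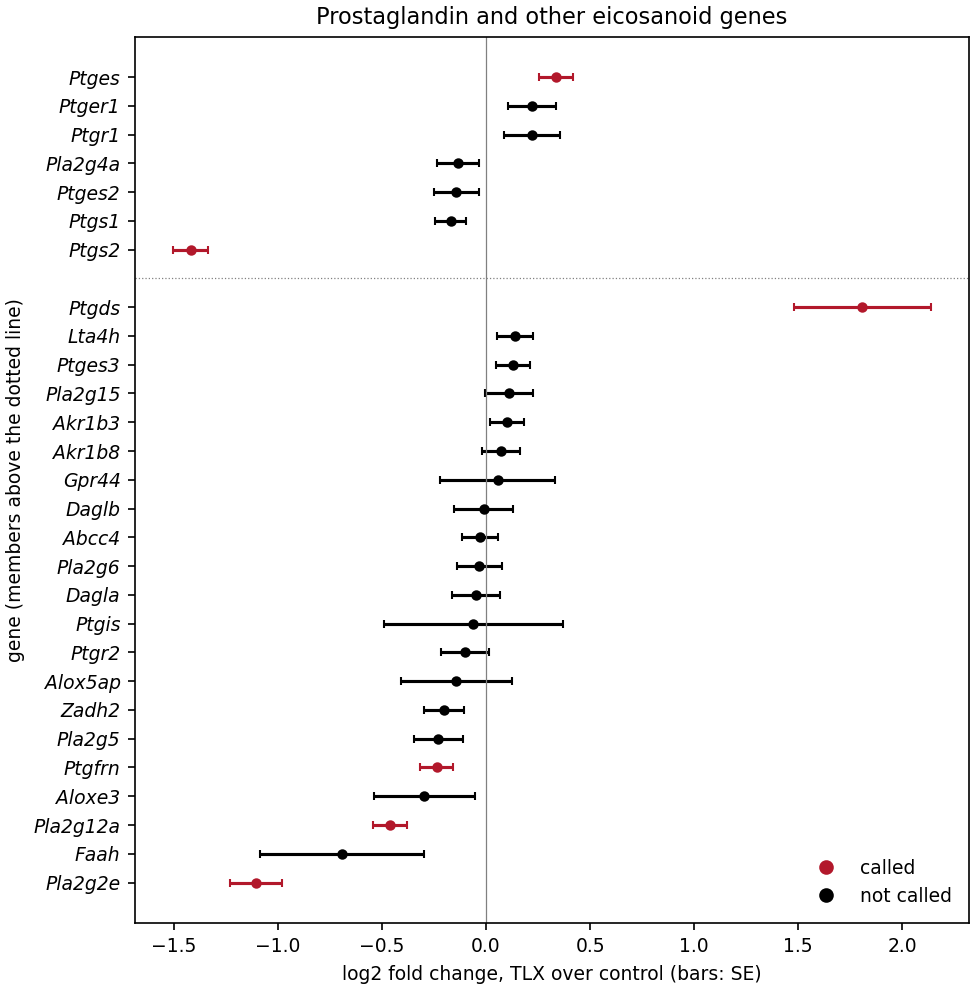
Log2 fold change of TLX over control with its SE for the 7 tested prostaglandin genes (above the dotted line) and the 21 tested genes of the wider eicosanoid list (below it); red marks genes called in the fit over all genes. Ptgs2 (-1.42) and Pla2g2e (-1.10) are the lowest points and Ptgds (1.81) the highest.

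Most genes that supply arachidonate, by making it or by moving it in and out of phospholipids, did not pass the test. Of 19 genes 15 were tested, of which 1 rose, 2 fell and 12 did not pass (20% called, beside 16.8% of all genes tested; median log2 fold change 0.05). Fads2, the desaturase of the first step from linoleic acid towards arachidonic acid, rose to 64.5 ± 2.3 CPM with TLX, against 45.8 ± 8.0 CPM in control (log2 fold change 0.50, SE 0.10, adjusted p = 0.00149). Its relative Fads3 fell to 94.6 ± 5.2 CPM with TLX, against 145.5 ± 2.8 CPM in control (log2 fold change -0.62, SE 0.08, adjusted p = 7.56e-06). Tmem86a, which encodes a lysoplasmalogenase, had a log2 fold change of -0.74 (adjusted p = 1.48e-05). Fads1, the desaturase that makes arachidonic acid itself and the most abundant gene of the list, was at 222.8 ± 9.7 CPM with TLX and 202 ± 10 CPM in control and did not pass (adjusted p = 0.226).

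Genes that carry the signal of prostaglandin receptors, through G proteins and cyclic AMP, were mostly close in level between the groups. Of 39 genes 28 were tested, of which 2 rose, 3 fell and 23 did not pass (median log2 fold change 0.0077). The share called was 17.9%, close to the 16.8% of all genes tested. Gna11, a G protein subunit of the Gq class, rose to 67.3 ± 0.5 CPM with TLX, against 51.9 ± 1.2 CPM in control (log2 fold change 0.38, SE 0.09, adjusted p = 0.004). Rapgef3, the cyclic AMP sensor Epac1, had a log2 fold change of 0.84 (adjusted p = 0.00636), the protein kinase A subunit gene Prkar1b one of -0.39 (0.00974) and the phosphodiesterase gene Pde3b one of -0.92 (0.0229). Rapgef3 did not pass without TLX replicate 1 (0.125), Prkar1b without TLX replicate 2 (0.129), and Pde3b without control replicate 2 or TLX replicate 2 (0.256 and 0.17). Over all alternatives the adjusted p ran from 0.000416 to 0.125 for Rapgef3, 0.000497 to 0.129 for Prkar1b and 0.00499 to 0.256 for Pde3b. The third that fell was Sik1, a kinase gene that cyclic AMP induces in many cells (log2 fold change -0.58, adjusted p = 0.0308), named after its value was seen. Only 1 of the 28, which rose, passed in DESeq2. Gnas, which encodes the subunit that couples EP2 and EP4 to adenylyl cyclase, was at 918 ± 34 CPM with TLX and 901 ± 41 CPM in control (adjusted p = 0.867), and Gnai2, an inhibitory subunit, was at 460 ± 16 CPM with TLX and 411 ± 35 CPM in control (adjusted p = 0.171).

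The last list held 29 genes known to control Ptgs2 transcription, its mRNA decay or its substrate supply. Among them 28 were tested: 2 rose, 7 fell and 19 missed the threshold (median log2 fold change -0.08). The share called was 32.1%, beside 16.8% of all genes tested, of which 9.04% were called lower. Because the list was chosen with earlier results of these data known, nothing is read from this share. In DESeq2 0 rose and 5 fell; without TLX replicate 1 or 2 the calls numbered 6 each. The AP-1 gene Jun fell to 89.8 ± 5.9 CPM with TLX, against 167.4 ± 8.0 CPM in control (log2 fold change -0.90, SE 0.08, adjusted p = 4.53e-08). Cebpd, a C/EBP factor, fell to 54.2 ± 0.8 CPM with TLX, against 86.0 ± 3.2 CPM in control (log2 fold change -0.67, SE 0.09, adjusted p = 7.56e-06). Junb and the NF-kB subunit gene Relb had log2 fold changes of -0.49 (adjusted p = 5.27e-05) and -0.60 (6.39e-05). The others that fell, named after their values were seen, were Rel (-0.71), another NF-kB subunit gene, and Zfp36 (-0.57) and Zfp36l1 (-0.42), whose proteins destabilise AU-rich mRNAs. The 2 that rose were Nfat5 (0.32) and the RNA-binding protein gene Hnrnpd (0.27), likewise named after their values were seen. The 2 genes of the list with the highest mean CPM over all 4 libraries did not pass, although Junb, which fell, was above both in control at 258.6 CPM. Khsrp was at 275.9 ± 1.4 CPM with TLX and 250.8 ± 3.4 CPM in control (adjusted p = 0.218), and Nfkb2 at 206 ± 12 CPM with TLX and 236 ± 12 CPM in control (0.0931). Nfkb2 passed without control replicate 2 (0.0147) and with the replicate number as a block (0.0077), and its adjusted p reached 0.602 in another alternative.

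By the distance between log2 CPM profiles centred on each gene's mean over the 4 libraries, the genes with a symbol whose pattern was most like that of Ptgs2 were Mmp28 (distance 0.0877), Sox9 (0.113) and Lgr6 (0.147). Mmp28, a matrix metalloproteinase gene, had 11 and 11 counts with TLX and 33 and 43 in control. Sox9, a transcription factor gene and one of the duct markers above, was at 10.4 ± 0.2 CPM with TLX and 27.0 ± 2.4 CPM in control. Lgr6, a receptor gene for R-spondins, was at 5.15 ± 0.57 CPM with TLX and 13.2 ± 2.0 CPM in control. With 4 libraries in 2 groups this likeness mostly orders genes by the size of the group difference, and it was not tested.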

How the data were processed

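RNA was sequenced from 4 MIN6 libraries, 2 with TLX overexpression and 2 controls. Per the file headers, the deposited values are unnormalised read counts for each feature, given with its length. TopHat2 2.0.13 and mm9 are named in the submitters' processing notes; the sources used here give no counting program, annotation or strand setting. Of 56826 rows, 33353 are FANTOM3 cDNA clones, which took 23.3% to 25.1% of counts and were left out; the ribosomal RNA row took 12.2% to 16.7% of gene row counts and was kept.

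Genes were kept by filterByExpr at its minimum count of 10. After TMM scaling, the quasi-likelihood test of edgeR compared the groups, and Benjamini-Hochberg adjustment ran over 11024 genes with a threshold of 0.05. The SE is the log2 fold change divided by the square root of F. DESeq2 (version 1.42.0), limma (3.58.1) and edgeR (4.0.16) ran in R 4.3.3. The procedure was tested on simulated counts. CPM per kilobase uses the deposited length. Promoters are from RefSeq (GRCm38.p6) and overlaps from GENCODE vM21, builds other than mm9.

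Members and lists were chosen with earlier results of these data known. Named genes were the members, Nr2e1, up to 4 called genes of smallest p and the 2 most abundant of each list, and the 3 nearest in pattern to the member of largest change. Alternatives were other scaling, filters, tests and rows, the replicate number as a block, and leaving out each library.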

Additional observations from a re-analysis of the deposited data

How the results depend on the processing

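The number of genes called over all genes tested was 1856. It was 839 with DESeq2's Wald test, 2982 with the replicate block, and 1024 to 2053 when 1 library was left out, with the low values without TLX replicate 2 (1024) and TLX replicate 1 (1039). The replicate numbers could not be shown to pair the libraries: the deviations of same-numbered libraries correlated at 0.11 over tested genes, from 2 pairs only. Of the members 2 were called in the fit reported, 3 with the replicate block (Ptgs1 in addition) and 1 to 2 when 1 library was left out. The sign of each of the 7 tested members held in all 13 alternatives, which reuse the same libraries. Between single TLX and control libraries it did not hold for Ptges2 or Pla2g4a. Their log2 ratios ran from -0.36 to 0.06 for Ptges2 and from -0.26 to 0.009 for Pla2g4a. Calls among receptor signalling genes numbered 5, but 2 among genes averaging at least 10 CPM, 1 in DESeq2, 7 with the replicate block and 3 to 6 when 1 library was left out. Calls among Ptgs2 regulators numbered 9, but 5 in DESeq2, 16 with the replicate block and 6 to 12 when 1 library was left out. Calls numbered 3 to 5 among other eicosanoid genes and 3 in each alternative among arachidonate supply genes. Gnas, not called, had a log2 fold change of 0.03, which was -0.0194 without control replicate 2, -0.0116 without TLX replicate 1 and as high as 0.0724 without control replicate 1. Gnai2 passed with the replicate block (adjusted p = 0.0217) and without control replicate 1 (0.0234), with values up to 0.624 elsewhere. Ptgfrn, Rapgef3, Prkar1b and Pde3b did not pass in DESeq2 (0.17, 0.112, 0.11 and 0.244). The cause of these shifts was not tested. Genes averaging under 10 CPM, such as Ptgds, had no value under that filter. Genes under a few counts per library, such as Ptger2, Ptger4 and Hpgd, could not be compared at this depth.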
